A study of Rattus norvegicus with 18 samples.

Results

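Transcripts of 10 receptors for dopamine, serotonin and acetylcholine were examined in the dorsal hippocampus of rats. The genes were Drd1 and Drd5 (dopamine), Htr1a, Htr2a, Htr2c and Htr4 (serotonin), Chrna7 and Chrnb2 (nicotinic acetylcholine) and Chrm1 and Chrm3 (muscarinic acetylcholine). They were taken by symbol from the deposited counts, without regard to their values, and are 10 of the 38445 genes counted. All 10 passed the filter on low values that left 17853 genes for testing. RNA-seq was performed on 18 adult male Sprague Dawley rats (wild type, 75–85 days old at purchase, individually housed and pair fed), 6 per group. Control rats received the Lieber-DeCarli control liquid diet for 16 days. Ethanol rats were introduced to ethanol over 7 days and then received a diet with 9% (v/v) ethanol for 16 days without withdrawal. Withdrawal rats had the same introduction, 15 days on 9% ethanol and then 24 h of control diet. The investigators knew the treatment groups. The comparisons ask whether transcripts of these receptors differed during chronic ethanol or after 24 h of withdrawal.

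Dopamine, serotonin and acetylcholine reach the hippocampus mainly through fibers of neurons located elsewhere, and their receptors set how strongly pyramidal, granule and inhibitory neurons respond to other inputs. Drd1 and Drd5 encode receptors that raise cyclic AMP, as does the receptor encoded by Htr4, whereas the Htr1a receptor lowers cyclic AMP and opens potassium channels. The receptors encoded by Htr2a, Htr2c, Chrm1 and Chrm3 act through phospholipase C, and Chrna7 and Chrnb2 encode subunits of ligand-gated cation channels.

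Counts assigned to genes ranged from 30873228 to 42679748 per rat (median 36302755). Values are CPM, library-scaled counts after TMM normalization, unless given per length. The labelled tissue was checked with lists of marker genes. Summed CA1 markers lay between 346 and 611 CPM in 16 rats but at 216 CPM in ethanol rat 1 and 245 CPM in withdrawal rat 5. Ethanol rats 1 and 4 had the highest sums of striatum markers (624 and 486 CPM, against 158 to 290 CPM in the other 16 rats) and of thalamus markers (1713.5 and 1015 CPM, against 289 to 921 CPM). Choroid plexus markers summed to 30.3 and 34.3 CPM in withdrawal rats 4 and 5 and to at least 1137 CPM in every other rat. Withdrawal rats 1 and 5 had the lowest sums of dentate granule cell markers (306 and 287 CPM, against 346 to 459 CPM in the other 16 rats) and of CA2 and CA3 markers (530.0 and 431 CPM, against 619 to 1122 CPM). Several results are also given without ethanol rats 1 and 4, withdrawal rats 1 and 5 or withdrawal rats 4 and 5, choices made after seeing the data. The control libraries all carried 1 set of index sequences that no other group had, so that index set and control diet cannot be told apart. Withdrawal rats 3 to 6 carried another set that no other rat had, and withdrawal rats 1 and 2 shared the set of the ethanol rats.

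The 10 receptors differed widely in level per transcript length. In control rats Chrm1 (109 ± 14.9 TPM, SD, n = 6) and Htr2c (78 ± 17.1 TPM) were the most abundant, and their ranges over rats overlapped. Chrnb2 followed with 52.5 ± 8.56 TPM, a range that overlapped Htr2c but lay above Htr1a (35.6 ± 4.47 TPM) and Chrna7 (33.4 ± 1.91 TPM), which were not separated from each other. Chrm3 stood alone at 20.6 ± 2.15 TPM. Htr4 (5.99 ± 0.48 TPM), Drd1 (5.61 ± 1.33 TPM) and Htr2a (3.89 ± 0.86 TPM) overlapped with their neighbors in this order, and Drd5 was the least abundant at 2.14 ± 0.44 TPM, below every control value of Htr2a. In ethanol rats Htr2c (109 ± 39.0 TPM) had a higher mean than Chrm1 (95.1 ± 27.8 TPM) and Drd1 a higher mean than Htr4, and all neighbors overlapped. In withdrawal rats the order was that of control except that Chrna7 and Htr1a traded places, as did Htr4 and Drd1, and only Chrnb2 and Chrm3 were separated from the next gene. TPM rests on the annotated exonic length, which ran from 1269 bases (Htr1a, a single exon) to 9807 bases (Chrm3). Among 53 genes for dopamine, serotonin, adrenergic, histamine, muscarinic and nicotinic receptors, Chrm1, Htr2c and Chrnb2 had the highest mean level over the 18 rats, and the 10 receptors together made up 45.0% to 58.1% of the summed TPM (median 52.0%).

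**Figure D1:**
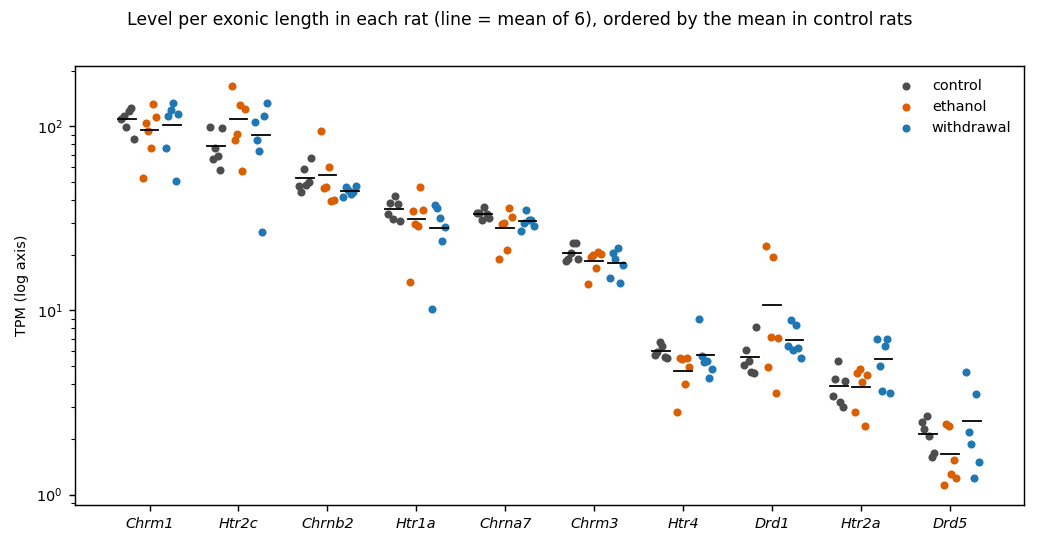
Level of each receptor gene per exonic length (TPM, log axis) in each of the 18 rats, with a line at the mean of 6 rats and genes ordered by the mean in control rats. Chrm1 and Htr2c lie near 100 TPM and Drd5 near 2 TPM, and single ethanol or withdrawal rats depart from their groups in Htr2c, Htr1a and Drd1.

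None of the 10 receptors was DE in any comparison (q < 0.1, limma-voom with 3 surrogate variables, which are unnamed sources of variation estimated from the data, and Benjamini-Hochberg adjustment over all genes tested). For withdrawal against control 0 of 10 were called, where 5.41% of all genes tested were. For ethanol against control 0 of 10 were called (0.493% of all genes), and for withdrawal against ethanol 0 of 10 (2.72%). The F-test across the 3 groups also called 0 of 10, against 5.60% of all genes. The shares over all genes depended on single rats. In place of 965 genes between withdrawal and control, leaving out 1 rat gave 23 (without withdrawal rat 6) to 1911 (without withdrawal rat 2), and leaving out withdrawal rats 4 and 5 gave 7. In place of 88 between ethanol and control, it gave 0 (without control rat 4, with 1989 genes at an unadjusted p under 0.05) to 258 (without ethanol rat 5). In place of 486 between withdrawal and ethanol, it gave 0 (without ethanol rat 2, ethanol rat 3 or withdrawal rat 6, with 2020, 2178 and 1917 genes at an unadjusted p under 0.05) to 1800 (without ethanol rat 5), all by limma-voom. At an unadjusted p under 0.05 in limma-voom, Chrm3 differed between withdrawal and control (1 of 10, against 19.7% of all genes) and Chrnb2 between ethanol and control (1 of 10, against 12.5%), and 0 of 10 differed between withdrawal and ethanol (against 16.7%). The quasi-likelihood test of edgeR called 0 of 10 in all 3 comparisons, with and without surrogate variables. Of the 17853 genes it called 1030 and 33 (with and without surrogate variables) for withdrawal against control. It called 96 and 62 for ethanol against control and 532 and 682 for withdrawal against ethanol. DESeq2 called Chrm3 between withdrawal and control (1 of 10, against 1624 of 17853 genes). The exact permutation test of mean log2 CPM gave an unadjusted p under 0.05 for 0 of 10 in withdrawal against control (13.0% of all genes), for Htr4 alone in ethanol against control (13.5%) and for 0 of 10 in withdrawal against ethanol (14.4%). In no receptor did the 6 rats of one group all lie beyond the 6 rats of another, which held for 1.07% of all genes in withdrawal against control, 1.39% in ethanol against control and 1.20% in withdrawal against ethanol.

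The median absolute log2 fold change of the 10 receptors was 0.16 for withdrawal against control (0.09 over all genes tested), 0.09 for ethanol against control (0.08) and 0.10 for withdrawal against ethanol (0.09). The 95% confidence interval of a log2 fold change reached at least 0.12 to either side of the estimate (Chrm1) and up to 0.55 (Drd1). These limits are not adjusted over genes, and Chrm3 and Chrnb2, each with 1 interval that excluded 0, did not pass q < 0.1. The spread between rats of a group differed among the receptors. The SD of log2 CPM within groups was 0.65 for Drd1 and 0.60 for Htr2c, above that of 93.1% and 91.4% of all genes tested. For Chrm3 and Chrna7 it was 0.22 and 0.23, closer to the median of all genes (0.18).

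**Figure D2:**
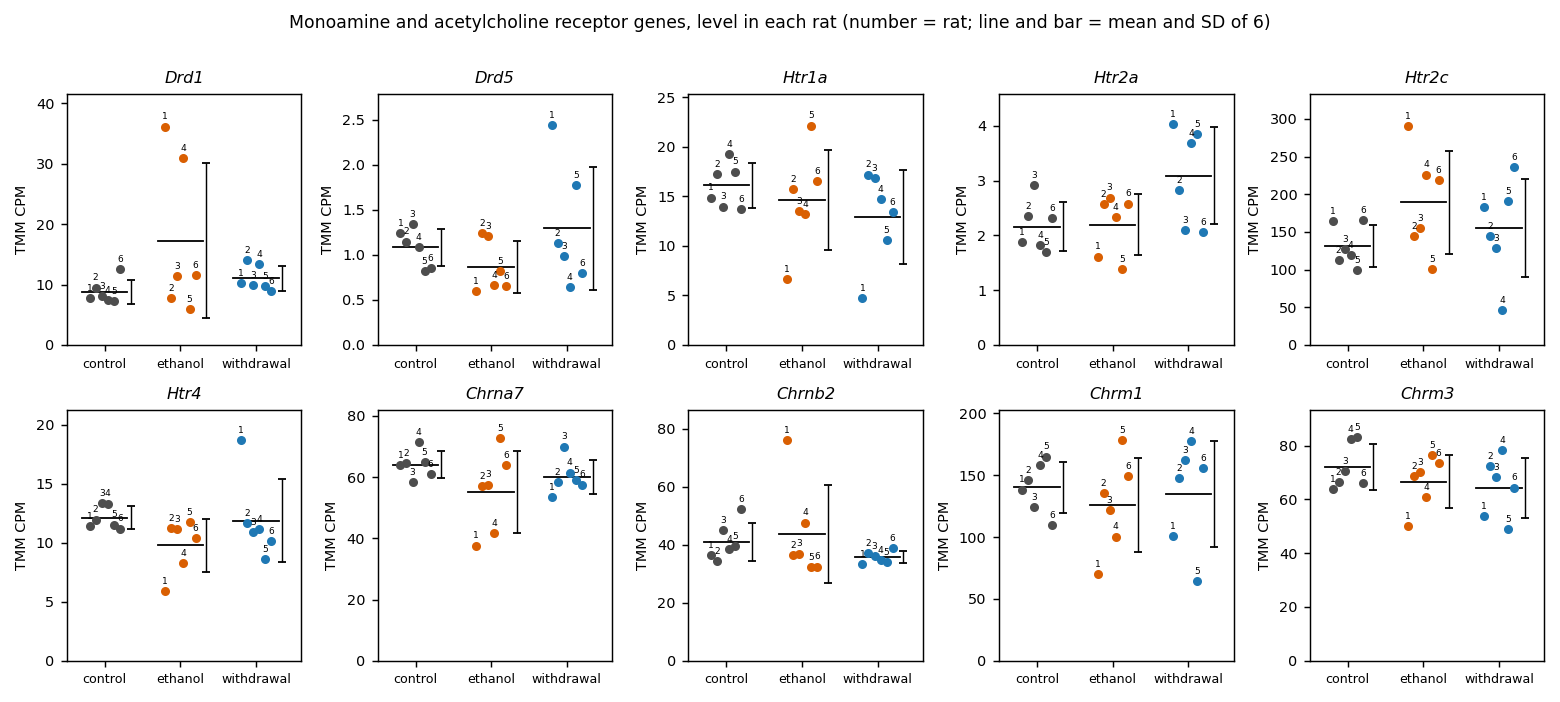
CPM of the 10 receptor genes in each rat (points, numbered by rat), with the mean and SD of the 6 rats of each group as a line and bar. The groups overlap in every panel, and ethanol rat 1 is the highest rat for Drd1, Htr2c and Chrnb2 and the lowest for Drd5, Htr4 and Chrna7.

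**Figure D3:**
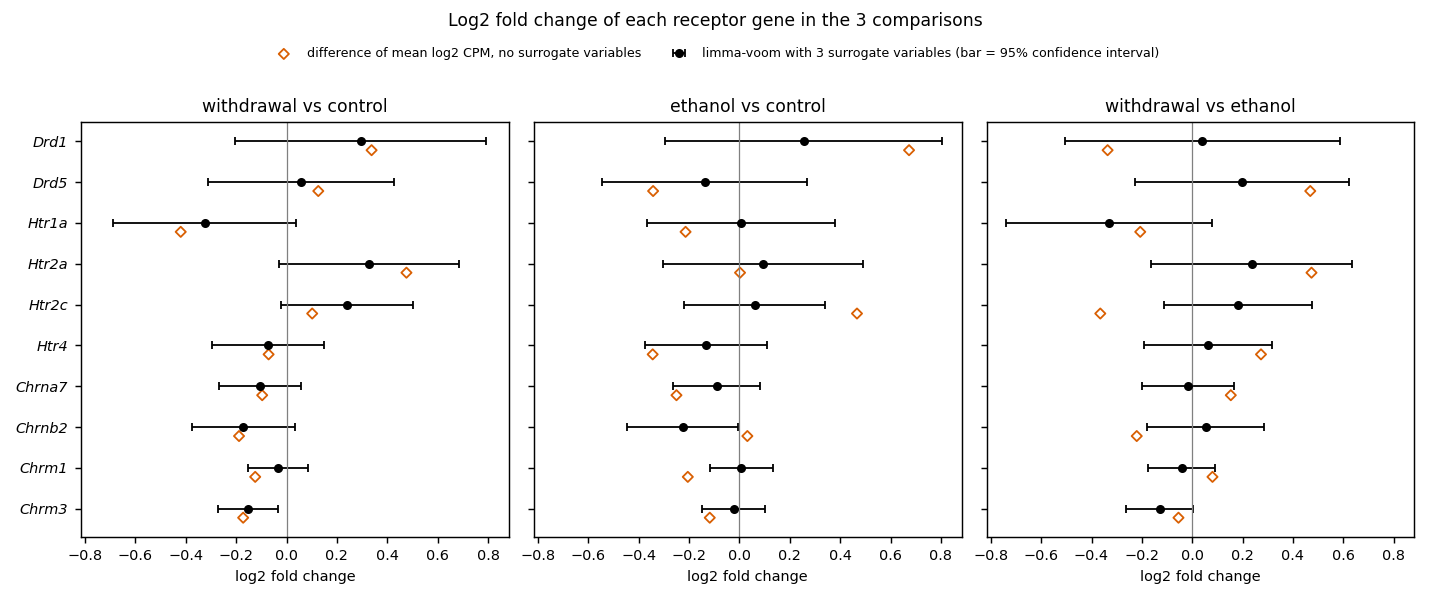
Log2 fold change of each receptor gene in the 3 comparisons from limma-voom with 3 surrogate variables (filled points, bars are 95% confidence intervals) and as the plain difference of mean log2 CPM (open diamonds). The interval excludes 0 only for Chrm3 between withdrawal and control and for Chrnb2 between ethanol and control, neither of which passed q < 0.1, and the diamonds lie on the other side of 0 for 5 receptors between withdrawal and ethanol.

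Drd1 (chromosome 17, 11099736 to 11104352 in Rnor_6.0) encodes the dopamine receptor that is densest in striatal neurons. Its lowest, median and highest levels were 7.25, 7.94 and 12.6 CPM in control, 5.90, 11.4 and 36.1 CPM in ethanol and 8.98, 10.1 and 14.0 CPM in withdrawal rats. Ethanol rats 1 (36.1 CPM) and 4 (30.9 CPM) were far above all other rats, none of which exceeded 14.0 CPM, and the remaining 4 ethanol rats lay from 5.90 to 11.5 CPM (mean 9.14 ± 2.77 CPM), overlapping the controls. The log2 fold change from control to ethanol was 0.25 (SE 0.26, 95% CI −0.30 to 0.80, q = 0.735 by limma-voom), and it was 0.02 when these ethanol rats were left out. All 6 withdrawal rats were above the control mean of 8.77 CPM, but the log2 fold change of 0.29 did not pass the test (SE 0.24, 95% CI −0.21 to 0.79, q = 0.521 by limma-voom). It was 0.54 (q = 0.199) without withdrawal rats 1 and 5 and 0.53 (q = 0.424) without withdrawal rats 4 and 5, by limma-voom. The difference of mean log2 CPM between withdrawal and control gave p = 0.0758 by the two-sided exact permutation test. From ethanol to withdrawal the log2 fold change was 0.04 (95% CI −0.51 to 0.58, q = 0.963 by limma-voom), against a plain difference of mean log2 CPM in the other direction (−0.34).

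The level of Drd1 over the 18 rats followed the summed level of 10 striatum markers (Pearson r = 0.95, Spearman rho = 0.89, both on the log2 scale). Without ethanol rats 1 and 4, the rats farthest from the median sum, r was 0.80. All 10 striatum markers were detected. The highest of them was Ppp1r1b, and their sum was 158 to 199 CPM in control, 179 to 624 CPM in ethanol and 192 to 273 CPM in withdrawal rats. The points are whole dissections, so that a larger number of cells of a type and more RNA per cell cannot be told apart, and the part of such tissue in the level of Drd1 was not tested. The gene whose pattern was most like that of Drd1 was Rgs9 (r = 0.95 over 18 rats), a regulator of G protein signaling and itself one of the striatum markers.

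Drd5 (chromosome 14, 77220579 to 77222006), the other receptor of the Drd1 type, was near the limit of measurement, with 21 to 75 counts per rat. Its levels were 0.82, 1.12 and 1.34 CPM (lowest, median and highest) in control, 0.59, 0.75 and 1.24 CPM in ethanol and 0.64, 1.06 and 2.44 CPM in withdrawal rats. Of the ethanol rats, 4 were below every control rat and the other 2 were within the control range. Withdrawal rats 1 and 5 were the highest of all 18, and the other 4 withdrawal rats had a mean of 0.89 ± 0.21 CPM, below the control mean of 1.08 CPM. Ethanol against control gave a log2 fold change of −0.14 (95% CI −0.55 to 0.27, q = 0.821), withdrawal against control 0.06 (95% CI −0.31 to 0.43, q = 0.887) and withdrawal against ethanol 0.20 (95% CI −0.23 to 0.62, q = 0.663), all by limma-voom. Without withdrawal rats 1 and 5 the direction between withdrawal and control turned (−0.14, q = 0.800 by limma-voom). Over the 18 rats Drd5 was high where CA2 and CA3 markers were low (r = −0.83, rho = −0.83, and r = −0.80 without withdrawal rat 5 and ethanol rat 1). Cd274 had the most similar pattern (r = 0.90).

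Htr1a (chromosome 2, 36246628 to 36247896) encodes an inhibitory receptor present on hippocampal pyramidal neurons. Control rats had 13.7, 16.1 and 19.3 CPM (lowest, median and highest), ethanol rats 6.63, 14.6 and 22.1 CPM and withdrawal rats 4.71, 14.1 and 17.2 CPM. The lowest values belonged to withdrawal rat 1 (4.71 CPM), ethanol rat 1 (6.63 CPM) and withdrawal rat 5 (10.6 CPM). Withdrawal was lower than control by 0.33 on the log2 scale without passing the test (SE 0.17, 95% CI −0.69 to 0.04, q = 0.305 by limma-voom), and the log2 fold change was −0.16 without withdrawal rats 1 and 5 and −0.04 without withdrawal rats 4 and 5. Ethanol against control gave 0.01 (95% CI −0.37 to 0.38, q = 0.994), and withdrawal against ethanol −0.33 (95% CI −0.74 to 0.08, q = 0.407), by limma-voom. The pattern of Ccdc177 was most like that of Htr1a (r = 0.91).

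Htr2a (chromosome 15, 56666152 to 56732469) encodes an excitatory serotonin receptor and was measured with 49 to 143 counts per rat. Its levels were 1.70, 2.10 and 2.91 CPM (lowest, median and highest) in control, 1.39, 2.45 and 2.69 CPM in ethanol and 2.06, 3.26 and 4.03 CPM in withdrawal rats. Withdrawal rats 1, 4 and 5 were above every control rat, while rats 3 and 6 were near the control median. The log2 fold change of withdrawal against control was 0.33, in size the largest of the 10 together with Htr1a (SE 0.17, 95% CI −0.03 to 0.69, q = 0.295 by limma-voom). The two-sided exact permutation test gave p = 0.0541, which adjusted over all genes tested became 0.395. Without withdrawal rats 1 and 5 the withdrawal mean was 2.67 ± 0.77 CPM in place of 3.09 CPM, against 2.16 CPM in control, and the log2 fold change was 0.32 (q = 0.447 by limma-voom). Without withdrawal rats 4 and 5 it was 0.33 (q = 0.612 by limma-voom). Ethanol against control gave a log2 fold change of 0.09 (95% CI −0.30 to 0.49, q = 0.889) and withdrawal against ethanol 0.24 (95% CI −0.16 to 0.63, q = 0.560), by limma-voom. Over the 18 rats Htr2a was high where dentate granule cell markers were low (r = −0.74, rho = −0.69, and r = −0.53 without withdrawal rats 5 and 1), and the uncharacterized LOC108349564 had the most similar pattern (r = 0.93).

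Htr2c (chromosome X, 118084520 to 118318040) encodes a serotonin receptor that is very abundant in the choroid plexus and is also made by neurons. The lowest, median and highest levels were 99.7, 123.5 and 166 CPM in control, 101, 187 and 290.2 CPM in ethanol and 46.7, 164 and 236 CPM in withdrawal rats. Ethanol rats 1, 4 and 6 (290.2, 226 and 218.5 CPM) and withdrawal rats 6, 5 and 1 (236, 191 and 183 CPM) were above every control rat, and withdrawal rat 4 (46.7 CPM) was below all of them. From control to withdrawal the log2 fold change was 0.24 (SE 0.12, 95% CI −0.02 to 0.50, q = 0.293 by limma-voom). It passed the threshold when withdrawal rat 4 was left out (0.39, q = 0.0729) and when ethanol rats 1 and 4 were left out (0.27, q = 0.0350), rats that enter this comparison only through the shared model, but not when withdrawal rats 4 and 5 were left out (0.35, q = 0.412 by limma-voom). Without surrogate variables it was 0.10 (q = 0.938), and when withdrawal rats 1 and 5 were left out as well the direction turned (−0.12, q = 0.938 by limma-voom). From control to ethanol it was 0.06 (95% CI −0.22 to 0.34, q = 0.897), whereas the plain means were 189 ± 68.3 CPM in ethanol and 132 ± 27.6 CPM in control (exact permutation p = 0.0952). Without ethanol rats 1 and 4 the ethanol mean was 155 ± 48.4 CPM. From ethanol to withdrawal it was 0.18 (95% CI −0.11 to 0.47, q = 0.545 by limma-voom), against a plain difference of mean log2 CPM in the other direction (−0.37).

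Withdrawal rat 5 had 191 CPM of Htr2c with 34.3 CPM of summed choroid plexus markers, and ethanol rat 5 had 101 CPM with 2015 CPM of those markers. Other rats went the other way. Withdrawal rat 4 had the lowest sum of those markers (30.3 CPM) and the lowest Htr2c (46.7 CPM). Ethanol rat 1 and withdrawal rat 6 had the highest Htr2c (290.2 and 236 CPM), with marker sums of 5559 and 5599 CPM. Over the 18 rats the correlation of Htr2c with the 9 thalamus markers was r = 0.76 (rho = 0.78, and r = 0.68 without ethanol rats 1 and 4). Its correlation with the choroid plexus list was r = 0.55 (rho = 0.48), and r = 0.73 without withdrawal rats 4 and 5. All 9 thalamus markers were detected, the highest being Slc17a6, with sums of 344 to 921 CPM in control, 299.6 to 1713.5 CPM in ethanol and 289 to 650.5 CPM in withdrawal rats. The parts of thalamus and choroid plexus tissue in the level of Htr2c were not tested. The gene most like Htr2c was Vat1l (r = 0.99), which was the closest match found for any of the 10 receptors.

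Htr4 (chromosome 18, 57637013 to 57820317) encodes a receptor that raises cyclic AMP in pyramidal neurons. Control rats lay close together at 11.2, 11.7 and 13.4 CPM (lowest, median and highest), ethanol rats at 5.89, 10.8 and 11.8 CPM and withdrawal rats at 8.64, 11.0 and 18.7 CPM. Of the 6 ethanol rats, 4 were below every control rat, led by rats 1 (5.89 CPM) and 4 (8.25 CPM), and the 4 ethanol rats other than these had a mean of 11.1 ± 0.57 CPM against 12.1 ± 0.98 CPM in control. Mean log2 CPM was lower in ethanol than in control rats by a difference of −0.34, with p = 0.0260 by the two-sided exact permutation test (0.311 after adjustment over all genes tested). In limma-voom the log2 fold change was −0.13 (SE 0.12, 95% CI −0.38 to 0.11, q = 0.675). Withdrawal against control gave −0.07 (95% CI −0.30 to 0.15, q = 0.745) and withdrawal against ethanol 0.06 (95% CI −0.19 to 0.32, q = 0.841), by limma-voom. Withdrawal rat 1 alone (18.7 CPM) was above every control rat, and 4 of the other withdrawal rats were below all of them. Unc13b had the most similar pattern (r = 0.92).

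Chrna7 (chromosome 1, 123897341 to 124039263) encodes the subunit of the homomeric nicotinic receptor that is enriched in the hippocampus. Its levels were 58.4, 64.2 and 71.4 CPM (lowest, median and highest) in control, 37.6, 57.3 and 72.7 CPM in ethanol and 53.4, 58.6 and 69.9 CPM in withdrawal rats. Ethanol rats 1 (37.6 CPM) and 4 (41.7 CPM) were the lowest of the 18, and the 4 other ethanol rats had a mean of 62.8 ± 7.28 CPM against 64.0 ± 4.41 CPM in control. Ethanol against control gave a log2 fold change of −0.09 (SE 0.08, 95% CI −0.26 to 0.08, q = 0.695) and withdrawal against control −0.11 (SE 0.08, 95% CI −0.27 to 0.06, q = 0.470), by limma-voom. Withdrawal against ethanol gave −0.02 (95% CI −0.20 to 0.17, q = 0.954 by limma-voom). Chrna7 was low where thalamus markers were high (r = −0.83, rho = −0.67, and r = −0.50 without ethanol rats 1 and 4). The same held for striatum markers (r = −0.84, rho = −0.63, and r = −0.33 without the same rats). Chrna7 was high where pan-neuronal markers (r = 0.79) and CA1 markers (r = 0.74) were high. Tmem150c was the gene most like Chrna7 (r = 0.92).

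Chrnb2 (chromosome 2, 189088570 to 189096785) encodes the beta subunit of the most common heteromeric nicotinic receptors of the brain. Control rats had 34.4, 39.1 and 52.2 CPM (lowest, median and highest), ethanol rats 32.3, 36.7 and 76.2 CPM and withdrawal rats 33.2, 35.4 and 38.8 CPM. Ethanol rat 1 (76.2 CPM) stood alone, and ethanol rat 4 (47.7 CPM) and control rat 6 (52.2 CPM) were the next highest. All 6 withdrawal rats were below the control mean of 41.0 CPM, with a log2 fold change of −0.17 (SE 0.10, 95% CI −0.38 to 0.03, q = 0.337 by limma-voom, and p = 0.0671 by the exact permutation test). It was −0.07 without withdrawal rats 1 and 5. From control to ethanol the log2 fold change was −0.23 (SE 0.10, 95% CI −0.45 to −0.01, q = 0.386 by limma-voom), although the mean of the 6 ethanol rats (43.7 ± 16.9 CPM) was above that of control. Without ethanol rats 1 and 4 the ethanol mean was 34.5 ± 2.52 CPM and the log2 fold change −0.25. Withdrawal against ethanol gave 0.05 (95% CI −0.18 to 0.29, q = 0.850 by limma-voom). Chrnb2 followed the thalamus markers (r = 0.85, rho = 0.55, and r = 0.62 without ethanol rats 1 and 4), and the potassium channel gene Kcnc2 was most like it (r = 0.95).

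Chrm1 (chromosome 1, 224869087 to 224885101) encodes the main muscarinic receptor of hippocampal pyramidal neurons. Its lowest, median and highest levels were 109.9, 142 and 165 CPM in control, 69.8, 129 and 178.5 CPM in ethanol and 64.2, 152 and 177 CPM in withdrawal rats. Withdrawal rat 5 (64.2 CPM) and ethanol rat 1 (69.8 CPM) were the lowest, followed by ethanol rat 4 (100.3 CPM) and withdrawal rat 1 (101 CPM), and all of them were below every control rat. Withdrawal against control gave a log2 fold change of −0.03 (SE 0.06, 95% CI −0.15 to 0.08, q = 0.777) and ethanol against control 0.01 (SE 0.06, 95% CI −0.12 to 0.13, q = 0.974), by limma-voom. From ethanol to withdrawal it was −0.04 (95% CI −0.17 to 0.09, q = 0.776 by limma-voom). These were the narrowest intervals among the 10 receptors. The direction between withdrawal and control turned without withdrawal rats 1 and 5 (0.06) and without withdrawal rats 4 and 5 (0.07).

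Chrm3 (chromosome 17, 63990599 to 64463222) encodes another muscarinic receptor that acts through phospholipase C. Control rats had 63.7, 68.5 and 83.0 CPM (lowest, median and highest), ethanol rats 50.0, 69.5 and 76.6 CPM and withdrawal rats 49.0, 66.4 and 78.3 CPM. Only withdrawal rats 5 and 1 and ethanol rats 1 and 4 were below every control rat, and the other 4 withdrawal rats (mean 70.9 ± 5.95 CPM) were spread over the control range. For withdrawal against control Chrm3 had the smallest q of the 10 receptors, with a log2 fold change of −0.15 (SE 0.06, 95% CI −0.27 to −0.03, q = 0.148 by limma-voom). It passed the threshold with DESeq2 (−0.16, q = 0.0929) and when withdrawal rat 2 was left out (−0.19, q = 0.0829 by limma-voom), but it was −0.11 (q = 0.456 by limma-voom) without withdrawal rats 1 and 5 and −0.10 (q = 0.676) without withdrawal rats 4 and 5, and without surrogate variables the exact permutation test gave p = 0.214. Ethanol against control gave −0.02 (95% CI −0.15 to 0.10, q = 0.913) and withdrawal against ethanol −0.13 (95% CI −0.26 to 0.00, q = 0.313), by limma-voom.

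Chrm1 and Chrm3 varied together from rat to rat, with the highest correlation of the 45 pairs of receptors (r = 0.89, rho = 0.80, and r = 0.75 without withdrawal rat 5 and ethanol rat 1). With deviations from the group means in place of the levels, r was 0.91. Chrm1 followed the 4 detected CA1 markers (r = 0.96, rho = 0.88, and r = 0.91 without ethanol rat 1 and withdrawal rat 5), as did Chrm3 (r = 0.86, rho = 0.75, and r = 0.69 without them). The highest CA1 marker was Wfs1, and Fibcd1 and Lefty1 did not pass the filter on low values. The correlation with the 8 pan-neuronal markers was r = 0.94 for Chrm1 and r = 0.88 for Chrm3. The parts of CA1 tissue and of neuronal RNA in these levels were not tested. The most similar genes were Actr3b for Chrm1 (r = 0.98) and Cdkl2 for Chrm3 (r = 0.94). With deviations from the group means in place of the levels, the most similar gene was the same for 4 of the 10 receptors (Drd5, Htr2a, Htr2c and Chrna7) and another for the rest, Chrm1 and Chrm3 included.

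The upstream sequences of Chrm1 and Chrm3 are shown because this pair had the most similar pattern. They are the 250 bases before the start site in RefSeq, read from the GRCr8 assembly, which is not the build of the counts, and lie at chr1:214996109-214996358 and chr17:64696677-64696926 on the + strand in that assembly (in Rnor_6.0 Chrm3 is annotated on the − strand). Capitals mark TGACG in both and GGGCGG in Chrm3.
Chrm1: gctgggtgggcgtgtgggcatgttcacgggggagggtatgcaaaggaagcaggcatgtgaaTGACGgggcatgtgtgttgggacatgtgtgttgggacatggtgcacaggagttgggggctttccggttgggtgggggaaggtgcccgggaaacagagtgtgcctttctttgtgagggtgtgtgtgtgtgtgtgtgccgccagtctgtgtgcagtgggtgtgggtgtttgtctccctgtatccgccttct
Chrm3: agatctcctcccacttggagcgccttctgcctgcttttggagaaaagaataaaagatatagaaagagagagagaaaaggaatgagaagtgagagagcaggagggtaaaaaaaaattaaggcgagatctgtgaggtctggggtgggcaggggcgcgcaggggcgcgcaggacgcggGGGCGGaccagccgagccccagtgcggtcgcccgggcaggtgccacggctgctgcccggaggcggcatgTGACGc
Entries were present for 7 of the 10 receptors (Drd1, Drd5, Htr2c, Chrna7, Chrnb2, Chrm1 and Chrm3). The core of a cyclic AMP response element (TGACG on either strand) was found in Chrm1 and Chrm3 and in no other of the 7, and in 18.2% of all 33469 upstream windows of this length. A GC box (GGGCGG on either strand) was found in Drd5, Chrna7, Chrnb2 and Chrm3, and in 30.5% of all windows. The palindrome CACGTG was found in Chrna7 and in 5.59% of all windows, whereas TATAAA (12.9%) and GCGTGGGCG (0.478%) were found in none of the 7. The GC content was 58.8% for Chrm1 and 60.0% for Chrm3, against a median of 51.2%. These are matches of letters only.

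Other pairs of receptors also varied together across rats. Of the 45 pairs, 3 had r of at least 0.7 and 2 had r of −0.7 or less, and with deviations from the group means in place of the levels 5 and 3 pairs did. On the levels themselves, the former were Chrm1 with Chrm3, Htr1a with Chrm3 (r = 0.79, rho = 0.79, and r = 0.77 without withdrawal rat 1 and ethanol rat 1) and Htr1a with Chrm1 (r = 0.72, rho = 0.79, and r = 0.80 without the same rats). The latter were Drd1 with Chrna7 (r = −0.87, rho = −0.60) and Chrna7 with Chrnb2 (r = −0.72, rho = −0.39), and both rested on ethanol rats 1 and 4, since r was −0.46 and −0.14 without them. Ethanol rat 1 was the highest of all 18 rats for 3 receptors and the lowest for 3, and ethanol rat 5 was also the highest for 3 and the lowest for 3. The points of these correlations share dissection and library, and no p is given.

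**Figure D4:**
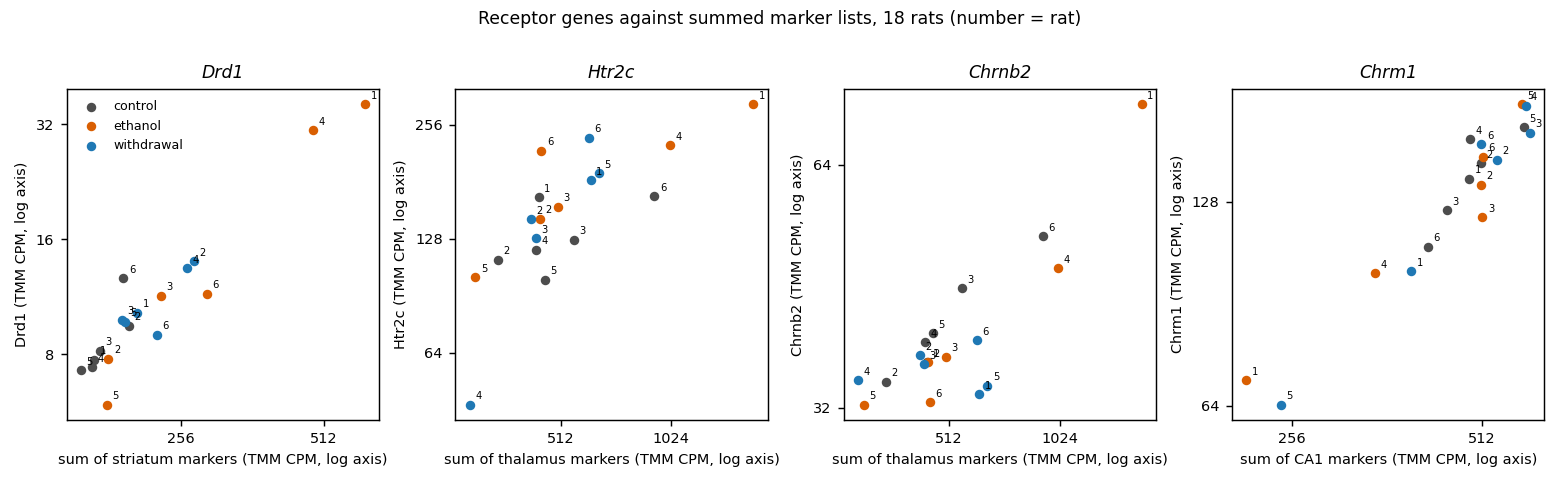
CPM of Drd1, Htr2c, Chrnb2 and Chrm1 (log axes) against the summed CPM of a marker list in the 18 rats, numbered within each group. Ethanol rats 1 and 4 lie at the upper right for Drd1 with striatum markers, and ethanol rat 1 and withdrawal rat 5 lie at the lower left for Chrm1 with CA1 markers.

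The surrogate variables in the model carried part of this variation. The second correlated with the thalamus markers (r = 0.94), the CA1 markers (r = −0.85) and the pan-neuronal markers (r = −0.92), and the first with the CA2 and CA3 markers (r = 0.90) and the interneuron markers (r = −0.88). Several log2 fold changes differed between the models with and without surrogate variables, and the cause was not tested. In withdrawal against ethanol, Drd1, Htr2c, Chrna7, Chrnb2 and Chrm1 had the opposite direction without surrogate variables, and in ethanol against control Htr1a, Htr2a, Chrnb2 and Chrm1 did. In withdrawal against control all 10 kept their direction. None of these values passed q < 0.1 in either model.

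Of 43 other receptor genes in 6 lists (dopamine, serotonin, adrenergic, histamine, muscarinic and nicotinic), 33 passed the filter, and 3 were DE in a comparison. In withdrawal against control 0 of 33 rose and 2 fell (2.85% and 2.55% of all genes). In ethanol against control 0 rose and 0 fell (0.336% and 0.157%), and in withdrawal against ethanol 0 rose and 1 fell (1.23% and 1.49%). None of 2 other dopamine receptors, 7 other serotonin receptors and 3 histamine receptors passed the test, and the same held for 6 chaperones and modulators of nicotinic receptors.

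Chrm5, 1 of 3 other muscarinic receptor genes, had the smallest q of these genes (chromosome 3, 103966451 to 104018815). It encodes a receptor known for its place on midbrain dopamine neurons. Control rats had 3.64, 5.24 and 6.76 CPM (lowest, median and highest), ethanol rats 2.15, 3.46 and 6.24 CPM and withdrawal rats 1.64, 3.41 and 4.38 CPM. All 6 withdrawal rats were below the control mean and 4 were below every control rat, and Chrm5 fell by 0.70 on the log2 scale (SE 0.12, 95% CI −0.94 to −0.45, q = 0.0188 by limma-voom). Without surrogate variables the change was −0.78 and was not called (q = 0.261), and when withdrawal rat 6 was left out it was −0.68 (q = 0.114). It was called in the 3 models with surrogate variables that left out ethanol rats 1 and 4, withdrawal rats 1 and 5, or all of them, but not without withdrawal rats 4 and 5 (−0.54, q = 0.147 by limma-voom). It was called in 0 of the same 4 models without surrogate variables (−0.78 to −0.44). Those models called only 0 to 44 of all genes in this comparison, so that few genes could have been called.

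Chrna3, 1 of 9 other nicotinic subunit genes tested (chromosome 8, 59594007 to 59607122), encodes a subunit that is concentrated in the medial habenula, and was on that marker list as well. It varied from 0.41 to 25.9 CPM in control, 0.28 to 26.4 CPM in ethanol and 0.59 to 10.1 CPM in withdrawal rats, and the groups overlapped widely. From control to withdrawal the log2 fold change was −2.01 (SE 0.55, 95% CI −3.16 to −0.86, q = 0.0645 by limma-voom), and it was not called without surrogate variables (−1.19, q = 0.795), with DESeq2 (−1.21, q = 0.299), or when control rat 1, 3, 4 or 6 or withdrawal rat 1, 3, 5 or 6 was left out. Without ethanol rats 1 and 4 it was −1.52 (q = 0.133), without withdrawal rats 1 and 5 −0.98 (q = 0.570), and without withdrawal rats 4 and 5 −0.09 (q = 0.983), by limma-voom. Slc5a7, the choline transporter of cholinergic neurons and 1 of 17 genes for synthesis, transport and breakdown that were tested, was highest in control rat 6, ethanol rat 4 and withdrawal rat 1, as Chrna3 was, with control levels of 1.40 to 26.3 CPM and withdrawal levels of 1.43 to 10.7 CPM (−1.46, SE 0.46, q = 0.0999 by limma-voom). It lost the call in 12 of 14 other settings, and in 13 of the 18 models that left out 1 rat (all but control rat 2, ethanol rats 2 and 5 and withdrawal rats 2 and 4). Its log2 fold change was −0.77 without withdrawal rats 1 and 5 and −0.25 without withdrawal rats 4 and 5. The summed medial habenula markers ranged from 76.9 to 223 CPM in control, 82.5 to 237 CPM in ethanol and 71.8 to 129 CPM in withdrawal rats, with Nwd2 the highest, and their part in these values was not tested.

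Adra2c, 1 of 9 adrenergic receptor genes (chromosome 14, 80730307 to 80732010), encodes an inhibitory adrenoceptor. Its levels were 12.6, 16.4 and 18.7 CPM (lowest, median and highest) in control, 16.2, 19.8 and 22.4 CPM in ethanol and 12.8, 14.8 and 17 CPM in withdrawal rats. It fell by 0.48 on the log2 scale from ethanol to withdrawal (SE 0.12, 95% CI −0.73 to −0.23, q = 0.0620 by limma-voom), with 4 of 6 withdrawal rats below every ethanol rat. Without surrogate variables it was also called (−0.40, q = 0.0762). It was not called when ethanol rat 2, ethanol rat 3 or withdrawal rat 6 was left out (q = 0.262, 0.210 and 0.344) or with only the groups compared (q = 0.187). Those settings called 0 of all genes tested. Of the 4 models that left out pairs of rats, 3 called it with surrogate variables, all but that without withdrawal rats 4 and 5 (−0.42, q = 0.106). Without surrogate variables 0 of the 4 did (q = 0.112 to 0.147). Of the ethanol and withdrawal rats, 8 carried the same index set, namely the 6 ethanol rats and withdrawal rats 1 and 2. Among them the log2 fold change was −0.36 (q = 0.773), and with a replicate block fitted to all rats q was 0.195. In this comparison the fit of 1 index set called 0 of all genes tested, and the block called 1.

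Caly, from a list of G proteins and effectors, encodes a protein that interacts with Drd1-type receptors, and fell by 0.23 on the log2 scale from ethanol (151 to 171 CPM) to withdrawal (130 to 157 CPM, SE 0.05, q = 0.0475 by limma-voom). It was also called without surrogate variables (−0.18, q = 0.0684). It was not called when ethanol rat 2, ethanol rat 3 or withdrawal rat 6 was left out (q = 0.225, 0.144 and 0.267). The same held with a replicate block (q = 0.158), with only the groups compared (q = 0.182) and among the rats with the same index set (−0.27, q = 0.773). In this comparison the block called 1 of all genes tested and those other settings called 0, so the loss of the call there is not particular to Caly. Maob, which encodes an enzyme that breaks down monoamines, fell by 0.19 from control (75.9 to 87.7 CPM) to withdrawal (62.2 to 79.1 CPM, SE 0.06, q = 0.0897 by limma-voom), and was not called without surrogate variables (q = 0.205) or when any control rat, ethanol rat 3 or withdrawal rat 1, 4 or 6 was left out. Without withdrawal rat 6 the log2 fold change was −0.11 (q = 0.403), and without withdrawal rats 4 and 5 −0.13 (q = 0.567), by limma-voom.

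**Figure D5:**
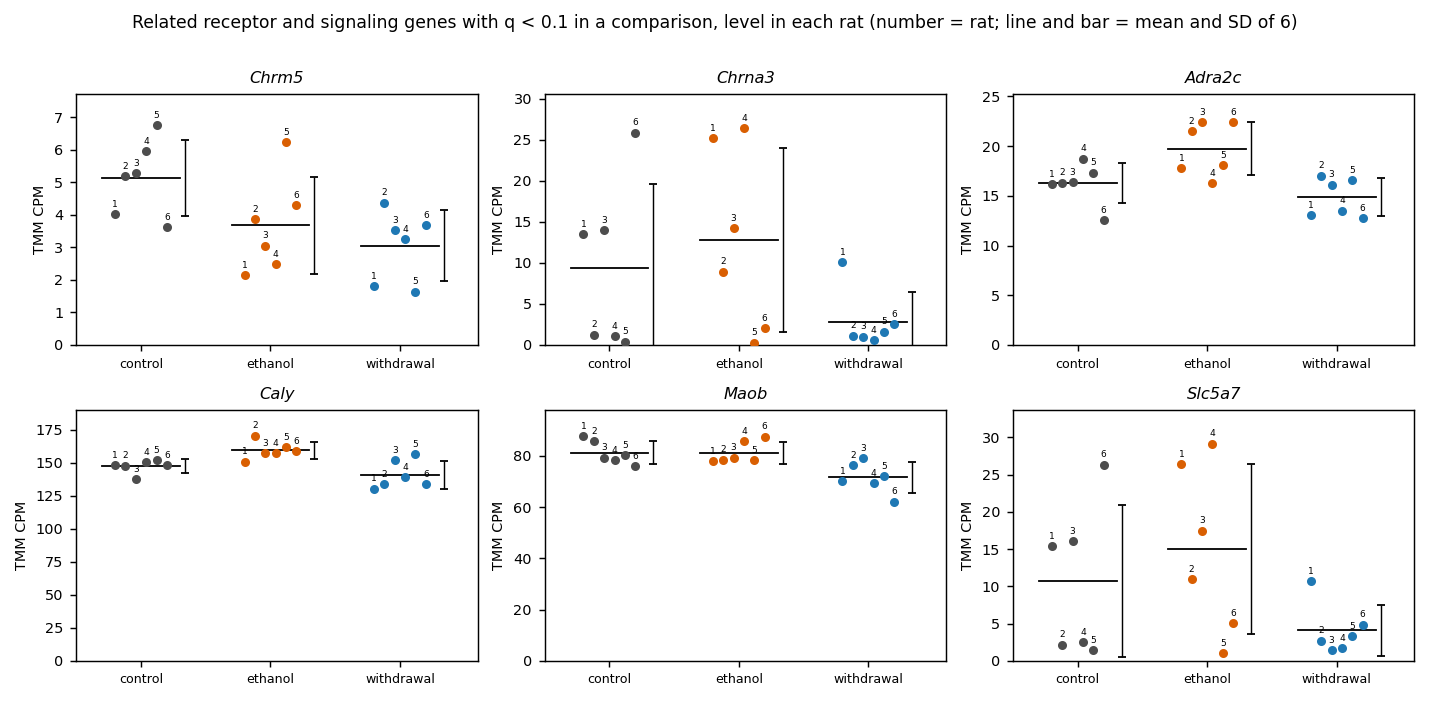
CPM in each rat (numbered) of 6 related genes with q < 0.1 in a comparison, with the mean and SD of each group (bars are cut at 0). Chrm5 and Maob were lower in withdrawal than in control, Adra2c and Caly were lower in withdrawal than in ethanol, and Chrna3 and Slc5a7 spread widely within each group.

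Marker lists that moved between the groups are given for reference. All 4 red blood cell markers tested fell in both ethanol and withdrawal rats (summed level 127 to 224 CPM in control, 36.9 to 96.3 CPM in ethanol and 41.6 to 151 CPM in withdrawal rats, with Hbb the highest, and Alas2, Hba-a1 and Hba-a2 the others, the last 2 being close copies of each other). Among all genes tested 2.55% fell in withdrawal and 0.157% in ethanol rats. The log2 fold changes of these markers lay from −1.54 (Hba-a2) to −1.36 (Hba-a1) in withdrawal (q = 0.0195 to 0.0270) and from −1.64 (Alas2) to −1.45 (Hba-a1) in ethanol rats (q = 0.0562 to 0.0834), by limma-voom. From control to withdrawal 3 of 6 endothelial markers rose, where 2.85% of all genes did, namely Pecam1 (0.34, q = 0.0257), Flt1 (0.28, q = 0.0629) and Vwf (0.33, q = 0.0746). Of 6 astrocyte markers, 2 rose in this comparison (Gfap by 0.54, q = 0.0775, and Sox9 by 0.37, q = 0.0979) and 1 fell (Aldh1l1, −0.41, q = 0.0487), and 1 of 6 dentate granule cell markers fell (Prox1, −0.26, q = 0.0968). Without surrogate variables none of these endothelial, astrocyte and dentate granule cell markers was called in this comparison (q = 0.205 to 0.385). That model called 41 of all genes tested. From ethanol to withdrawal, where 1.23% of all genes rose, 1 of 6 astrocyte markers (Gfap, 0.74, q = 0.0578) and 1 of 9 interneuron markers (Gad2, 0.35, q = 0.0578) did, all by limma-voom. Withdrawal rats 1 and 5 had the lowest Prox1 of all rats (72.8 and 52.9 CPM, against 108 to 148 CPM in the other 16) and the highest Gad2 (145 and 161 CPM, against at most 131 CPM). Without them Prox1 was −0.13 between withdrawal and control (q = 0.368) and Gad2 0.39 between withdrawal and ethanol (q = 0.0599), by limma-voom. Of the 12 markers called between withdrawal and control, Chrna3 among them, 6 were called without withdrawal rats 1 and 5 (Gfap, Pecam1 and those of red blood cells) and 0 without withdrawal rats 4 and 5 (7 at an unadjusted p under 0.05 in limma-voom). Between withdrawal and ethanol Gad2 was not called without withdrawal rats 4 and 5 (0.39, q = 0.107), and between ethanol and control Alas2 was not called without ethanol rats 1 and 4 (−1.57, q = 0.121). No choroid plexus, thalamus, striatum, CA1, CA2 and CA3, cortex, microglia, oligodendrocyte or pan-neuronal marker passed the test in any comparison.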

How the data were processed

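Libraries of poly(A) RNA from the dorsal hippocampus of 18 rats (6 control, 6 ethanol, 6 withdrawal) were sequenced paired-end. Alignment by the authors used STAR 2.5.2a and Rnor_6.0, and the deposited values are raw counts of reads per gene (featureCounts 1.5.0), 1 file per rat. Groups came from the treatment field of the labels and replicate numbers from the sample titles. Gene identifiers were named from the RefSeq table of GRCr8 (29322 of 38445), and all 211 listed symbols were matched. Precision is set by the number of counts and by the spread between rats. Replicates are different rats, none of the 45 pairs of libraries within a group matched within sampling noise, and whether litters or days were shared is not given in the sources used here.

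Counts were scaled by TMM (edgeR 4.0.16), genes above 0.5 CPM in at least 1 rat were kept, and 3 surrogate variables (sva 3.50.0, log2 CPM with a prior count of 2) entered a limma 3.58.1 voom model of all 3 groups in R 4.3.3. The numbers of rats in the cutoff and of surrogate variables are not stated by the study and follow an earlier account of these data. The threshold was q < 0.1. Mean log2 CPM of single genes was also tested by exact permutation, two-sided, over all 924 splits (smallest possible p = 0.00216). The alternatives were 0, 2 or 4 surrogate variables, edgeR's quasi-likelihood test, DESeq2 1.42.0, RLE scaling, other filters, sample quality weights, the compared groups only, a replicate block, q < 0.05, 1 index set, leaving out each rat and, added later, leaving out pairs of rats. Tables and plots were made in Python 3.11.15 with numpy 2.4.6, pandas 2.3.3, matplotlib 3.10.9 and scipy 1.17.1.

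The receptors, lists and tests were chosen with earlier results of these data known. Named are the 10 receptors, each gene of the other lists with q < 0.1 in any comparison, for each receptor the gene with the highest correlation of log2 CPM among genes with a mean of at least 1 CPM, and the highest gene of each marker list that bears on a receptor. Of these, 1 gene is not reported here.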

Additional observations from a re-analysis of the deposited data

Results flagged for a closer look

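In 2 of the 30 groups of 6 rats examined (10 receptors in 3 treatments), 1 rat stood apart from the other 5 by more than Dixon's 95% critical value for the gap over the range. Withdrawal rat 1 had 18.7 CPM of Htr4 against at most 11.7 CPM in the other withdrawal rats, and ethanol rat 1 had 76.2 CPM of Chrnb2 against at most 47.7 CPM in the other ethanol rats. Chance flags about 1 in 20 groups. Ethanol rat 1 also had the highest sum of thalamus markers (1713.5 CPM), and its part in the Chrnb2 value was not tested.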

How the results depend on the processing

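The counts of receptors called were 0 in nearly every setting. Exceptions were 1 of 10 between withdrawal and control with DESeq2 (Chrm3), and 1 between withdrawal and control (Htr2c) and 1 in the F-test when ethanol rats 1 and 4 were left out, a choice made after seeing the data. Between withdrawal and control DESeq2 called 1624 of all 17853 genes, and the model without ethanol rats 1 and 4 called 963 of 17738. Leaving out 1 rat gave 0 to 1 between withdrawal and control (Chrm3 without withdrawal rat 2 and Htr2c without withdrawal rat 4) and 0 in the other comparisons. Without withdrawal rat 2 and without withdrawal rat 4, 1911 and 1148 of all genes were called between withdrawal and control. Of 30 log2 fold changes of the receptors, 13 kept their direction and stayed short of the threshold in all 14 other settings and all 18 that left out 1 rat. Without surrogate variables the direction turned between ethanol and control for Htr1a (−0.21), Htr2a (−0.012), Chrnb2 (0.0288) and Chrm1 (−0.21), and between withdrawal and ethanol for Drd1 (−0.36), Htr2c (−0.37), Chrna7 (0.16), Chrnb2 (−0.22) and Chrm1 (0.0787). The quasi-likelihood test without surrogate variables gave −0.14 (Htr1a), 0.0872 (Chrnb2) and −0.16 (Chrm1) between ethanol and control, and −0.65 (Drd1), −0.29 (Htr2c), 0.12 (Chrna7), −0.29 (Chrnb2) and 0.10 (Chrm1) between withdrawal and ethanol. Among rats of 1 index set, withdrawal against ethanol gave −0.19 (Drd1), −0.13 (Htr2c), 0.0612 (Chrna7), −0.24 (Chrnb2) and 0.0204 (Chrm1). Small values near 0 also turned between withdrawal and control for Drd5 (−0.0354 with 2 surrogate variables, −0.0401 with quality weights) and Chrm1 (0.0122 with no filter). They turned between ethanol and control for Htr2c (−0.0014 with 2 surrogate variables), Chrm1 (−0.0341 with 2, −0.0037 with 4, −0.0077 with only the compared groups), Htr1a (−0.0045 with DESeq2) and Chrm3 (0.0016 with quality weights, 0.0002 with only the compared groups), and between withdrawal and ethanol for Htr4 (−0.0039 with quality weights). The cause was not tested.

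Leaving out 1 rat at a time turned 12 of the 30 values, all of them with q above 0.1. Between withdrawal and control the ranges were −0.05 to 0.23 (Drd5), −0.20 to 0.0527 (Htr4) and −0.0947 to 0.0168 (Chrm1). Between ethanol and control they were −0.0776 to 0.0609 (Htr1a), −0.0315 to 0.13 (Htr2c), −0.0536 to 0.0595 (Chrm1) and −0.059 to 0.025 (Chrm3). Between withdrawal and ethanol they were −0.16 to 0.50 (Drd1), −0.043 to 0.17 (Htr4), −0.0493 to 0.0605 (Chrna7), −0.0071 to 0.12 (Chrnb2) and −0.0903 to 0.0064 (Chrm1).

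Rats with the same replicate number are different animals, and their deviations from the group means correlated above 0.1 in 4 of 18 pairs (−0.32 to 0.38). Differences in dissection also enter these correlations. They cannot show whether rats with the same number shared a day or were matched in pair feeding. A fit with the replicate block and 3 surrogate variables called 0 of 10 receptors in each comparison and turned Htr1a between ethanol and control (−0.0467). Over all genes the block changed the calls from 965 to 914 between withdrawal and control, from 88 to 26 between ethanol and control and from 486 to 1 between withdrawal and ethanol. Without surrogate variables 41, 50 and 621 genes were called in these comparisons, with DESeq2 1624, 473 and 1176, and with no filter 486, 9 and 166. The block without surrogate variables, chosen after seeing the data, also called 0 of 10. It called only 0, 0 and 14 of all genes in these comparisons, so that it could hardly have called a receptor. It turned the direction of 4 receptors between ethanol and control and of 5 between withdrawal and ethanol. The counts limit Drd5 most, with 21 to 75 counts per rat.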
